A study of Mus musculus with 6 samples.

Results

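The sarcomeric myosin heavy chains are the motor proteins of the thick filaments of striated muscle, and 8 of the 31053 genes in the deposited count table were taken by name: Myh4, Myh1 and Myh2, the adult fast isoforms, Myh7, Myh6 and Myh7b, the slow and cardiac isoforms, and Myh3 and Myh8, the embryonic and perinatal isoforms. The choice was by gene symbol. Of the 8 members, 5 passed the expression minimum used for testing and 3 (Myh6, Myh7b and Myh8) did not. The RNA came from quiescent muscle stem cells (qMuSCs), the resident stem cells of skeletal muscle, which were sorted by GFP from resting hindlimb muscles of mice 3 to 4 months old. Each library was made from 1 mouse. The 3 WT mice (c124, c129 and c130) were Pax7nGFP/+;Pax7+/+;Dio2Fl/Fl and the 3 cD2KO mice (fl125, fl126 and fl128) were Pax7nGFP/+;Pax7-CreERT2/+;Dio2Fl/Fl. All 6 mice therefore carried the nuclear GFP transgene and floxed alleles of Dio2, the gene of the type 2 deiodinase (D2), and all were given tamoxifen, so that both the Cre allele and the intended loss of D2 set the groups apart. Cre was driven by Pax7, so a cell that never made Pax7 would keep Dio2.

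A myosin heavy chain carries the ATPase head that pulls on actin and a long coiled tail that packs into the thick filament, and each heavy chain binds an essential and a regulatory light chain. Muscle fibers are named by the isoform they hold: type I fibers use Myh7, and the fast types IIa, IIx and IIb use Myh2, Myh1 and Myh4. Myh3 and Myh8 are made in the embryo and around birth and again in regenerating fibers. Thyroid hormone (TH) is known to favour fast over slow isoforms in muscle, and D2 makes the active hormone T3 inside cells. Stem cells at rest are not known to build sarcomeres.

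On the mouse build mm10, Myh3, Myh2, Myh1, Myh4 and Myh8 lie in this order on the plus strand of chromosome 11, at 67078300-67102291, 67171027-67197517, 67200052-67224575, 67238029-67260446 and 67277124-67308634. Myh6 (54941921-54966927) and Myh7 (54970684-54994626) lie side by side on the minus strand of chromosome 14, and Myh7b lies on the plus strand of chromosome 2 at 155611212-155634307. The 140 bases around the RefSeq start of the 4 members of highest level are shown because they are the nearest regulatory sequence of the transcripts counted here. They run from 120 bases before the start to 20 bases from it on, on the plus strand of GRCm38.p6, with the TATA box (TATAAA) in capitals.
Myh4, chr11:67237692-67237831: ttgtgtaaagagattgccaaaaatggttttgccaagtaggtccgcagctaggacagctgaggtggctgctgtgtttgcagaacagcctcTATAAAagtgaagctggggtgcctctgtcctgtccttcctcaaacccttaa
Myh2, chr11:67170907-67171046: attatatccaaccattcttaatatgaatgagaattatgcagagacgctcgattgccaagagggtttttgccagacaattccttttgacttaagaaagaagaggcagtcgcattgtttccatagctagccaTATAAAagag
Myh1, chr11:67199982-67200121: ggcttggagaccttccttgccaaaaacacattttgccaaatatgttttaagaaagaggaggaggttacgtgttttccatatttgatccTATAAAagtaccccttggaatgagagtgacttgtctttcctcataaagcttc
Myh3, chr11:67078180-67078319: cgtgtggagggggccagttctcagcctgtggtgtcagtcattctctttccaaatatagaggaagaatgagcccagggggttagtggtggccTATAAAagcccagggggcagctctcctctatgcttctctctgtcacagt

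Counted from the first transcribed base, the TATA box began at -31 in Myh4, -32 in Myh1 and -29 in Myh3. In Myh2 it began at 11, after the annotated start. TATAAA on either strand was found in 13.6% of the 32851 RefSeq promoters of the same length (250 bases before the start and 50 from it on), and in 2.95% with a beginning between -45 and -15. The core binding site of the TH receptor (AGGTCA, either strand) was in 16.3% of all promoters and in that of 1 of the 8 members, Myh7b, beginning at -46. The E-box (CANNTG, the site of MyoD and related factors) was in 72.3% of all promoters and in 6 of the 8. The CArG box, the site of SRF, was in 1.63% of all promoters and in that of Myh4 alone among the members. These are matches of letters and not shown to be sites in use.

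The members resemble each other, which bears on how reads were assigned. Over their longest annotated transcripts, which are between 6016 and 6230 bases long, 89.75% of the aligned bases of Myh1 and Myh2 were identical, 89.3% of Myh1 and Myh4, and 89.85% of Myh6 and Myh7. Cut into windows of 50 bases, 26.06% of Myh1, 26.7% of Myh2 and 18.59% of Myh4 occurred word for word in another member, against 3.661% of Myh3 and 0% of Myh7b. Of Myh7, 22.21% occurred in Myh6, and in the last 500 bases 51.0% did. Reads were aligned by STAR at its defaults, but how reads that match several places were counted is not given in the sources used here, so the values of Myh1, Myh2 and Myh4 are less certain between each other than as a sum, and those of Myh6 beside Myh7 likewise.

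Total counts ran from 2184073 to 3897787 per mouse, and 3 counts stood for 0.768 to 1.36 CPM (CPM, counts scaled to a common library size with edgeR's TMM factors), the level under which a value was not told apart from 0 by counting error alone. Of the 11633 genes tested with edgeR's quasi-likelihood test, 5.34% lay higher and 6.62% lower in the cD2KO mice with an unadjusted p below 0.05, 0.0086% passed at an adjusted p under 0.05, and in 18.1% all cD2KO mice lay above or all below all WT mice. The deleted gene, Dio2, had 21, 5 and 10 counts in WT and 15, 5 and 1 in the cD2KO mice. It was under the expression minimum, and the library labelled fl125 had its highest level, 6.80 CPM, which goes against that label, although reads on the floxed exon are not separated from the rest in these counts. The marker lists gave mixed cells: the stem cell markers were present (Pax7 at 211 to 688 CPM), and so were markers of mural cells (Acta2 at 1559 to 7901 CPM), fibroblasts (Dcn at 997 to 3100 CPM) and macrophages (C1qa at 44.4 to 1336 CPM).

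**Figure D1:**
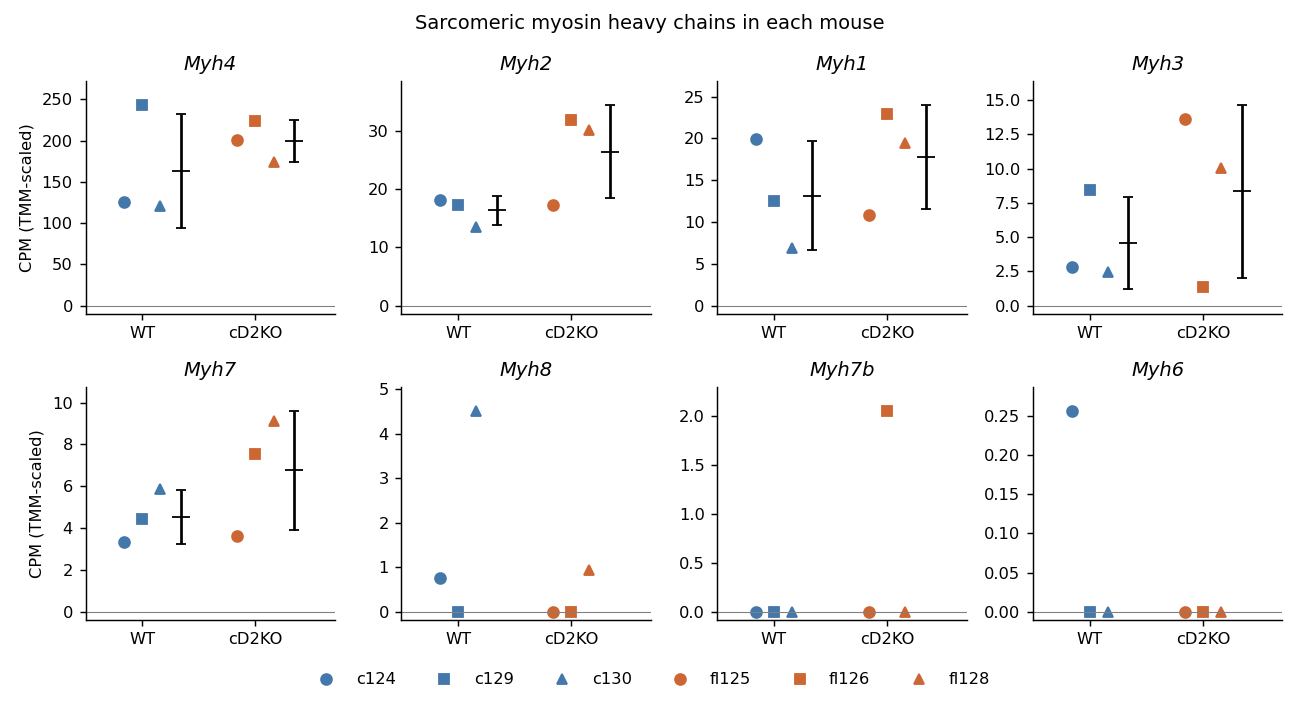
Level of each of the 8 members in CPM (y axis, TMM-scaled, a separate scale per gene) in the 3 WT and 3 cD2KO mice; each point is a mouse and the black bar beside it the group mean ± SD, drawn for the 5 members tested. Myh4 lies between 121 and 243 CPM in all 6 mice, in each of the 5 tested genes the groups overlap, and Myh8, Myh7b and Myh6 rest on 1 to 3 mice.

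Myosin heavy chain RNA was present in every library, almost all of it of the adult fast kind. The 8 members together had 669, 776 and 445 counts in c124, c129 and c130 of the WT group and 544, 847 and 774 in the library labelled fl125 and in fl126 and fl128. Scaled to library size, this was 171, 286 and 154 CPM in WT and 247, 290 and 243 CPM in the cD2KO mice. The sum was thus 204 ± 71.6 CPM in WT and 260 ± 26.0 CPM in the cD2KO mice (mean ± SD of 3 mice per group), a difference of 0.40 in mean log2 CPM that did not pass the two-sided exact permutation test over mice (p = 0.3, where 3 against 3 cannot go below 0.1). The WT mice c124 and c130 were the 2 lowest, and the third WT mouse, c129, lay among the cD2KO mice, so the groups overlapped. In bulk RNA, fewer fibers or cells of a type and less RNA in each cannot be told apart.

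Ordered by level per kilobase of longest transcript, averaged over the 6 mice, Myh4 stood first at 30.2 ± 8.42 CPM per kb (SD, n = 6 mice). Myh2 at 3.51 ± 1.26 and Myh1 at 2.54 ± 1.027 CPM per kb followed, then Myh3 at 1.07 ± 0.824 and Myh7 at 0.907 ± 0.370 CPM per kb. Myh8, Myh7b and Myh6 came last at 0.168, 0.0555 and 0.00698 CPM per kb. The lowest level of Myh4 in any mouse, 20.1 CPM per kb, lay above the highest of Myh2, 5.23 CPM per kb, and the mean of Myh4 was 8.59 times that of Myh2. The next neighbours were not separated beyond their spread: Myh2 lay above Myh1 in 5 of 6 mice, Myh1 above Myh3 in 5 of 6 and Myh3 above Myh7 in 3 of 6. Myh7 lay above Myh8 in 6 of 6 mice, although their ranges over the mice overlapped. Whether reads cover whole transcripts or their ends is not given in the sources used here, and by CPM without division by length the order of the 8 was the same.

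Myh4, the heavy chain of the fastest fibers, was at 126, 243 and 121 CPM in c124, c129 and c130 of the WT group and at 201, 224 and 174 CPM in the library labelled fl125 and in fl126 and fl128. WT mouse c129 had the highest level of all and the other WT mice the 2 lowest, so the groups overlapped. The means were 163 ± 69.2 CPM in WT and 200 ± 25.4 CPM in the cD2KO mice (mean ± SD of 3 mice per group), which is 0.29 on the log2 scale (SE, the standard error, 0.26, 95% interval -0.27 to 0.85, adjusted p = 0.731 from edgeR). Myh4 did not pass either threshold. The result depended on c129: without that mouse the log2 fold change of Myh4 was 0.71 and the unadjusted p from edgeR 0.00553, and over all alternatives the unadjusted p ran from 0.00553 to 0.710.

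Myh2, the isoform of oxidative fast fibers, was the 1 member of the 5 tested that had an unadjusted p under 0.05, where the background is 5.34% of all genes on the higher side. Its levels were 18.2, 17.3 and 13.5 CPM in the WT mice and 17.2, 31.8 and 30.2 CPM in the library labelled fl125 and in fl126 and fl128. The cD2KO mice fl126 and fl128 lay above every WT mouse, while the library labelled fl125 lay among the WT mice. The means were 16.3 ± 2.49 CPM and 26.4 ± 8.0 CPM (mean ± SD of 3 mice per group), which is 0.70 on the log2 scale (SE 0.32, unadjusted p = 0.0495 and adjusted p = 0.417 by edgeR). The call was at the edge, with a 95% interval from 0.0019 to 1.39 on the log2 scale. It was lost when any 1 of the WT mice, fl126 or fl128 was left out, with an unadjusted p of 0.0650 to 0.178 by edgeR. Without the library labelled fl125 it was kept, at 0.96 on the log2 scale with an unadjusted p of 0.00709 by edgeR. It was also lost with DESeq2 (unadjusted p = 0.0588), limma voom (0.0541), and, by edgeR, with scaling to total counts (0.0732) and a minimum mean of 50 counts (0.0621).

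Myh1, the isoform of fast IIx fibers, was at 19.97, 12.5 and 6.92 CPM in the WT mice and at 10.9, 22.9 and 19.5 CPM in the library labelled fl125 and in fl126 and fl128. The lowest and the third lowest of the 6 levels were in WT mice and the highest in a cD2KO mouse, and the groups overlapped. The log2 fold change was 0.43 (standard error 0.42, adjusted p = 0.752 from edgeR), within the spread between mice. In c124 Myh1 had more counts than Myh2, 78 against 71, and in the other 5 mice fewer.

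Myh7, the heavy chain of slow fibers, had 13, 12 and 17 counts in the WT mice and 8, 22 and 29 in the library labelled fl125 and in fl126 and fl128. These were 3.33, 4.42 and 5.88 CPM in WT and 3.63, 7.53 and 9.12 CPM in the cD2KO mice. The cD2KO mice fl126 and fl128 had the highest levels, and the library labelled fl125 had the second lowest. The log2 fold change was 0.59 (standard error 0.58, adjusted p = 0.750 from edgeR), and its 95% interval ran from -0.65 to 1.83. Per 100 counts of Myh4 there were 2.64, 1.82 and 4.87 counts of Myh7 in the WT mice and 1.80, 3.36 and 5.25 in the cD2KO mice, so that the ratio of slow to fast transcript overlapped as well (two-sided exact permutation test, p = 0.8, adjusted p = 0.990 over 11 ratios).

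The other slow and cardiac members were at or under the floor of 3 counts in nearly every mouse. Myh6, the main heavy chain of the adult mouse heart, had 1 count in c124 and 0 in the other 5 mice. Myh7b, which hosts the microRNA Mir499, had 6 counts in fl126 and 0 in the other 5 mice. A count of 0 allows a level of up to 0.768 to 1.36 CPM, depending on the mouse. No fold is given for these members.

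Myh3, the embryonic isoform, was the most uneven of the 5 members tested. It had 11, 23 and 7 counts in the WT mice and 30, 4 and 32 in the library labelled fl125 and in fl126 and fl128, or 2.82, 8.47 and 2.42 CPM in WT and 13.6, 1.37 and 10.1 CPM in the cD2KO mice. The library labelled fl125 and fl128 had the highest levels and fl126 the lowest, so the cD2KO mice enclosed the WT range. The log2 fold change was 0.87 (standard error 0.76, 95% interval -0.76 to 2.49, adjusted p = 0.722 from edgeR). Without fl126 it was 1.38 with an unadjusted p of 0.0567 and without c129 1.65 with 0.0842, both by edgeR, and without the library labelled fl125 it was 0.39.

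Myh8, the perinatal isoform, had 3, 0 and 13 counts in the WT mice and 0, 0 and 3 in the cD2KO mice. Most of its 19 counts thus came from c130. At 1.76 ± 2.41 CPM in WT and at 0.314 ± 0.544 CPM in the cD2KO mice (mean ± SD of 3 mice per group) it was under the minimum, and the two-sided exact permutation test over mice gave p = 0.7.

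Genes that overlap the members on the opposite strand had few reads, apart from Trpc4ap. Myhas, an antisense RNA over Myh1, had 17, 9 and 8 counts in the WT mice and 11, 6 and 6 in the cD2KO mice. 9430073C21Rik, antisense to the end of Myh2, had 16 counts in all. Mhrt, the antisense RNA of Myh7, had 0 counts in every mouse, Gm31251 over Myh7 had 1 and Gm49130 at the end of Myh6 had 2 counts in all. Trpc4ap, which shares 37 bases with the end of Myh7b, had 97 to 151 counts per mouse. The use of strand in counting is not given in the sources used here.

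**Figure D2:**
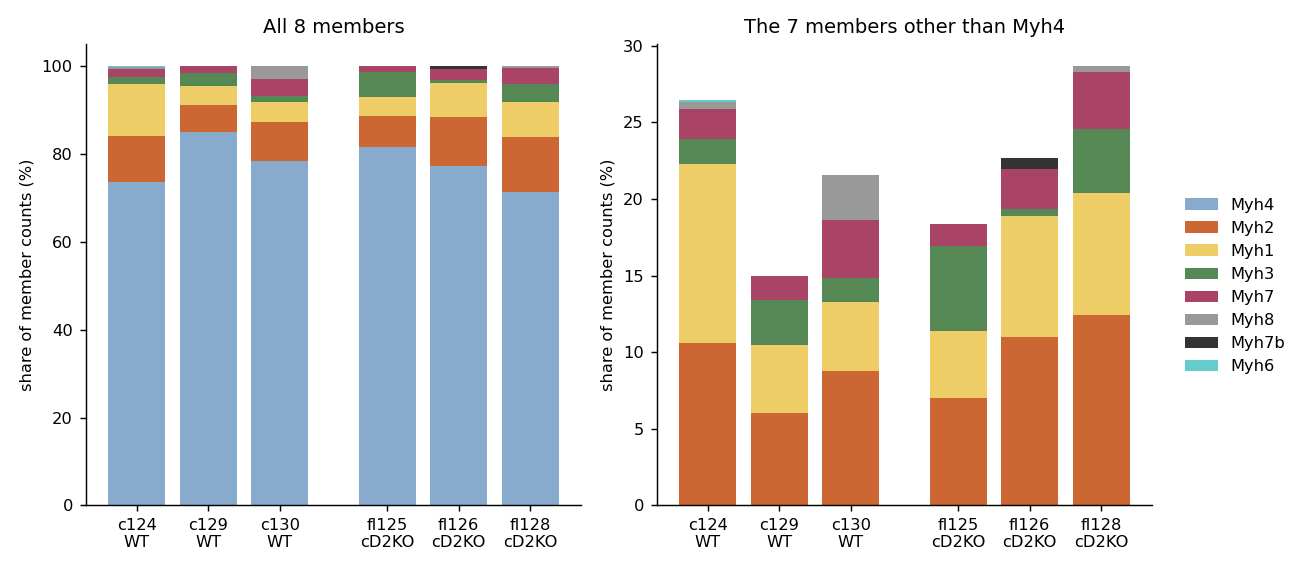
Share of each member in the summed counts of the 8 members (y axis, percent) for each mouse, with all members on the left and the 7 members other than Myh4 on the right. Myh4 takes 71.3% to 85.1% of the counts, and the stacks of the 7 other members differ as much between mice of a group as between the groups.

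As a share of the member counts, Myh4 took 73.5%, 85.1% and 78.4% in c124, c129 and c130 of the WT group and 81.6%, 77.3% and 71.3% in the library labelled fl125 and in fl126 and fl128. The Wilson 95% intervals of single mice, which cover counting error only, ran from 68.0% to 74.4% in fl128 and from 82.4% to 87.4% in c129, so single mice differed by more than counting error, but not along the groups. The mean share was 79.0 ± 5.78% in WT and 76.8 ± 5.17% in cD2KO (mean ± SD of 3 mice per group), a difference of -2.25 percentage points (two-sided exact permutation test, p = 0.7, adjusted p = 1 over the 8 members). Without c129 the difference was 0.771 and without fl128 0.468 percentage points, so its sign rested on single mice.

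Myh2 took 10.6%, 6.06% and 8.76% of the member counts in the WT mice and 6.99%, 10.98% and 12.4% in the cD2KO mice. Its mean share was 8.48 ± 2.29% in WT and 10.1 ± 2.81% in cD2KO (mean ± SD of 3 mice per group, p = 0.4 in the exact permutation test). The difference of 1.64 percentage points was smaller than the SD of either group, so the higher level of Myh2 did not come with a share outside the spread between mice. Myh1 took 4.38% to 11.7% of the counts, with means of 6.84% in WT and 6.78% in cD2KO.

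The remaining members had small shares. Myh7 took 1.47% to 3.82%, with means of 2.44 ± 1.21% in WT and 2.605 ± 1.14% in cD2KO. Myh3 took 0.472% (fl126) to 5.51% (the library labelled fl125), with means of 2.06 ± 0.783% and 3.37 ± 2.61% (mean ± SD of 3 mice per group). Myh8 took up to 2.92%, in c130. The 3 adult fast members together took 94.3 ± 2.30% in WT and 93.7 ± 2.31% in cD2KO (mean ± SD of 3 mice per group), with a range of 91.7% to 96.2% over the 6 mice. No share of any of the 8 members separated the groups, and the lowest of the 8 exact permutation p was 0.4, with all adjusted p at 1.

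**Figure D3:**
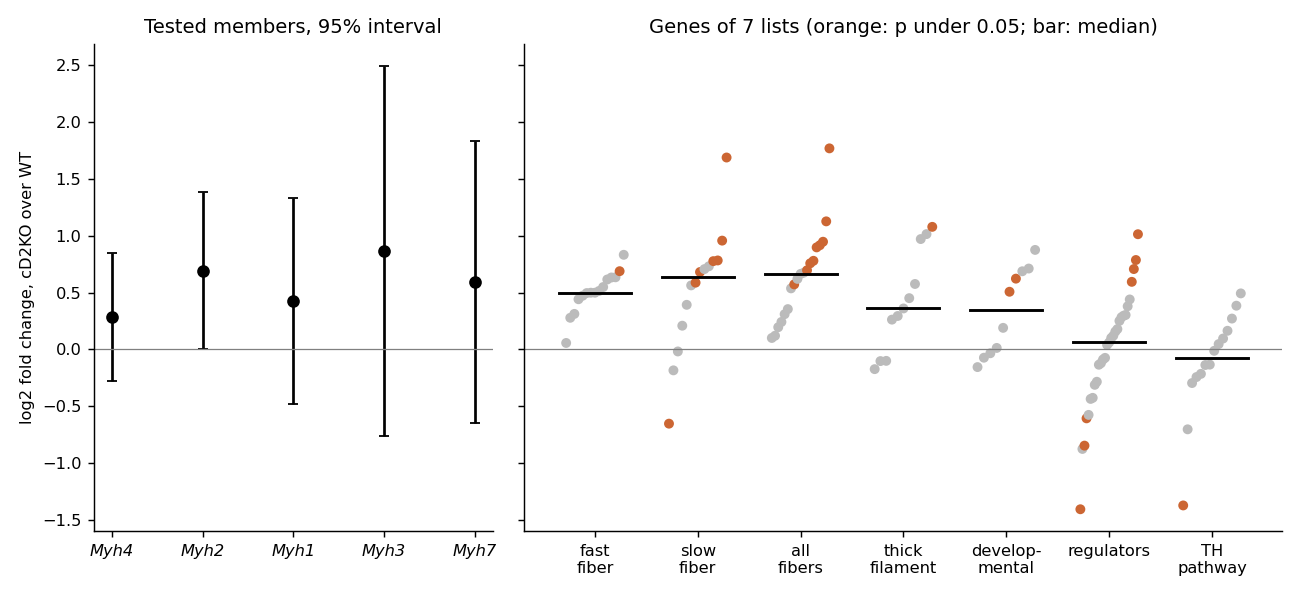
Log2 fold change of cD2KO over WT (y axis) for the 5 members tested, with 95% intervals from edgeR (left), and for the tested genes of 7 lists (right), where orange points have an unadjusted p under 0.05 and bars are list medians. The members lie between 0.29 and 0.87, near the medians of the fiber lists, 0.35 to 0.67. The medians of the regulators and the TH pathway are 0.06 and -0.07, with single genes spread on both sides of 0.

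All 5 members tested had a log2 fold change above 0, with a median of 0.59 beside -0.02 over all genes tested. None of the 5 had groups that did not overlap, where 18.1% of all genes tested did, and 0 passed at an adjusted p under 0.05 in edgeR. Since 3 members were under the minimum, this is a description of 5 genes. The signs of the 5 stayed positive in every alternative in which they were tested, which included scaling to total counts, DESeq2 and each mouse left out in turn. Relative to fiber transcripts the direction turned, but only with fl128 included: per count of 15 fast fiber partners, the summed level of the 8 members differed by -0.17 between the groups on the log2 scale (two-sided exact permutation test, p = 0.9), and without fl128 by 0.18, a scaling chosen after the data were seen.

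The fast fiber partners are the light chains, troponins, calcium handling proteins and enzymes that share the fast fibers with Myh4, Myh1 and Myh2. All 15 were tested and all 15 had a log2 fold change above 0, with a median of 0.50, but only Myl1, the essential light chain of fast fibers, was higher at an unadjusted p under 0.05 and 0 were lower. Over all genes 5.34% were higher, so 1 of 15 is near the background. Myl1 was at 502, 554 and 411 CPM in the WT mice and 502, 622 and 1245 CPM in the library labelled fl125 and in fl126 and fl128 (log2 fold change 0.69 with an SE of 0.30, adjusted p = 0.395 by edgeR). Its highest value came from fl128, and the groups overlapped. The count of higher fast partners moved with single mice: it was 8 without c129, 7 without the library labelled fl125 and 3 without fl126, but 0 without c124, c130 or fl128. It was 0 with scaling to total counts, 5 with DESeq2 and 11 with no minimum on counts.

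Of 14 slow fiber partners, 6 were higher and 1 was lower at an unadjusted p under 0.05, beside 5.34% and 6.62% of all genes, with a list median of 0.64. Tnnc1, the troponin C of slow fibers and heart, was at 4.10, 2.21 and 3.12 CPM in WT and at 14.5, 5.13 and 11.6 CPM in the cD2KO mice, which is 1.69 on the log2 scale (SE 0.58, edgeR adjusted p = 0.239). Every cD2KO mouse lay above every WT mouse, but Tnnc1 was named for its p, so that separation is no finding apart from the call. Over the list, all cD2KO mice lay above all WT mice in 6 of the 14 tested and below them in 1. Of all genes tested, the groups did not overlap in 18.1%, in either direction. Casq2, a calsequestrin, rose by 0.59 on the log2 scale, Tnnt1, the slow troponin T, by 0.78, Csrp3, a Z-disc protein, by 0.78 and Myl2, the regulatory light chain that pairs with Myh7, by 0.68 (edgeR adjusted p 0.263 to 0.383). Tpm3, a tropomyosin also found outside muscle, was lower, at 142 ± 27.7 CPM in WT and at 90.6 ± 3.98 CPM in the cD2KO mice (mean ± SD of 3 mice per group, log2 fold change -0.65, adjusted p = 0.188 by edgeR). The count of higher slow partners was 2 without fl128, 1 without c130, 3 without c129 and 3 with scaling to total counts. Over the mice Casq2 was at 221 to 427 CPM, while Myl2 was at 16.6 to 41.1 CPM. Which cells the Casq2 RNA came from was not tested.

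Of 20 genes shared by all fiber types, 19 were tested, with a list median of 0.67. Beside 5.34% and 6.62% of all genes, 9 were higher and 0 lower at an unadjusted p under 0.05. The 5 of smallest p among them were Tpm2, Cacna1s, Des, Ldb3 and Tcap. Tpm2, a tropomyosin, was at 1855 ± 207 CPM in WT and at 4060 ± 1868 CPM in the cD2KO mice (mean ± SD of 3 mice per group, log2 fold change 1.13, adjusted p = 0.124 by edgeR). Cacna1s, the voltage sensor of the triad, was at 4.65 ± 0.787 and 15.9 ± 7.21 CPM (mean ± SD of 3 mice per group, log2 fold change 1.77, adjusted p = 0.124 by edgeR). Des, an intermediate filament protein, Ldb3, a Z-disc protein, and Tcap, which caps titin, were higher by 0.95, 0.90 and 0.76 on the log2 scale (adjusted p 0.130 to 0.136 by edgeR). In each of these 5 genes, picked by smallest p, all cD2KO mice lay above all WT mice. Over the list this was so in 6 of the 19 tested and the reverse in 0, where in 18.1% of all genes the groups did not overlap. The groups overlapped in Acta1 (532 to 1394 CPM in WT and 1134 to 2121 in cD2KO), Ckm (176 to 422 and 241 to 592 CPM) and Ttn (164 to 236 and 214 to 300 CPM), which were named whatever their p. Tpm2 and Des are also genes of smooth muscle. Without fl128 the count of higher genes was 6 and without c130 also 6.

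The thick filament list holds the proteins that bind, fold and anchor myosin. Of its 14 genes, 11 were tested and 1, Myom1, was higher at an unadjusted p under 0.05, with 0 lower, beside 5.34% and 6.62% of all genes, and a median of 0.36. Myom1, which encodes myomesin, the crosslinker of thick filaments at the M-band, was at 123, 117 and 107 CPM in the WT mice and at 285, 198 and 253 CPM in the library labelled fl125 and in fl126 and fl128. The lowest cD2KO mouse lay well above the highest WT mouse (log2 fold change 1.08 with an SE of 0.20, adjusted p = 0.0885 by edgeR). Myom1 was named for its p, so that separation of the groups is no finding apart from the call. In the list, 2 of the 11 genes tested had groups that did not overlap, both higher in cD2KO, beside 18.1% of all genes in either direction. Unc45b, a chaperone that folds the myosin head, was at 19.9 ± 5.43 and 17.9 ± 12.0 CPM (mean ± SD of 3 mice per group), and Smyd1, a methyltransferase needed for sarcomere assembly, at 7.18 ± 4.42 and 14.96 ± 5.65 CPM (edgeR adjusted p = 0.436). Both named genes overlapped between the groups.

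Of 12 genes of developing or newly formed fibers, 10 were tested, 2 were higher and 0 lower at an unadjusted p under 0.05, with a median of 0.35. Those were Ckb, the brain creatine kinase (log2 fold change 0.62, edgeR adjusted p = 0.212), and Cdh15, M-cadherin, which is also a stem cell marker (0.51, edgeR adjusted p = 0.381). Neither is a sarcomere protein, and the embryonic light chain Myl4 was at 6.53 ± 4.30 and 11.8 ± 7.36 CPM (mean ± SD of 3 mice per group) with overlapping groups. The higher genes of this list were 1 without c130, the library labelled fl125 or fl128 and 3 without fl126, and those of the thick filament list were 2 without c124 or fl126. Over the 5 fiber lists together, 19 of 69 genes tested, or 27.5%, were higher and 1 was lower, beside 5.34% and 6.62% of all genes. Without c130 the higher genes were 9 and without fl128 10, and with scaling to total counts they were 12, so the number moved by more than 1.5 times with 1 mouse or with the scaling. That scaling lowered the share of higher genes among all calls from 44.6% to 31.5%.

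**Figure D4:**
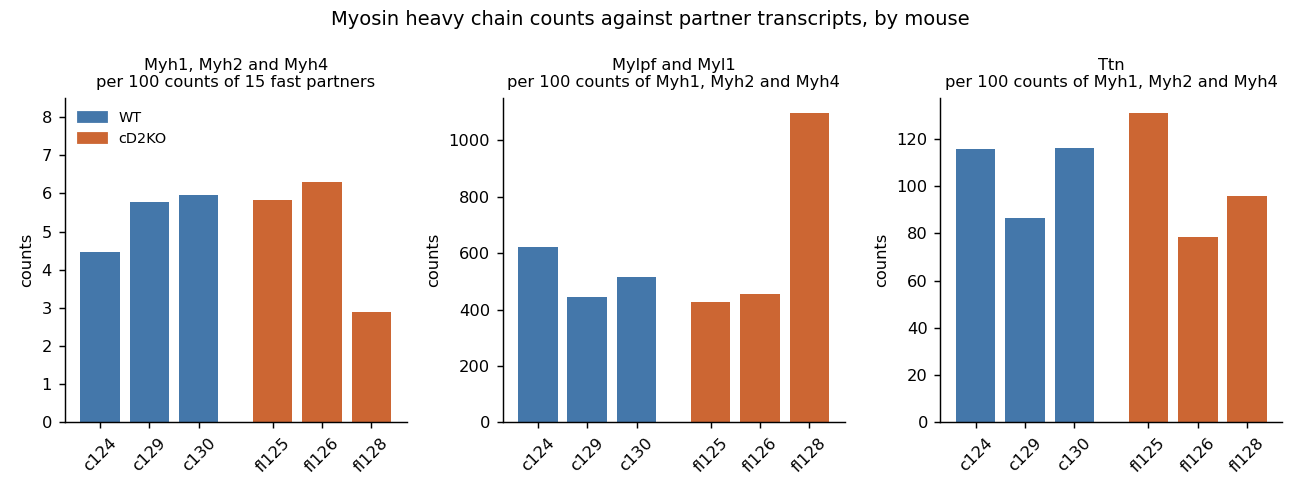
Counts of Myh1, Myh2 and Myh4 together per 100 counts of 15 fast fiber partners (left), counts of the light chain genes Mylpf and Myl1 per 100 counts of Myh1, Myh2 and Myh4 (middle) and counts of Ttn per 100 of the same (right), each bar a mouse, with axes from 0. In fl128 the first ratio is the lowest of the 6 and the second the highest, while its Ttn ratio lies among the others.

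The heavy chains did not keep a fixed ratio to their partners in every mouse. The 3 adult fast members had 4.46, 5.76 and 5.95 counts per 100 counts of the 15 fast partners in the WT mice, 5.83 in the library labelled fl125 and 6.30 in fl126, but 2.90 in fl128. Mylpf and Myl1, the fast light chains, had 620, 445 and 516 counts per 100 counts of the fast heavy chains in the WT mice, 426 and 456 in the library labelled fl125 and fl126, and 1095 in fl128. Mouse fl128 thus stood apart, with the highest fast partners (7709 summed CPM against 2375 to 4736 in the other 5 mice) beside a heavy chain level inside the range of the others. Acta1 per 100 counts of the fast heavy chains was likewise 950 in fl128 and 377 to 561 in the other mice.

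Ttn, the longest transcript of the sarcomere, had 95.8 counts per 100 of the fast heavy chains in fl128, inside the range of 78.6 to 131 in the other mice, and Mybpc2, the fast myosin binding protein, had 58.3 beside 41.9 to 47.8. By longest annotated transcript, Ttn has 106824 bases, the heavy chains 6016 to 6230 and Acta1 1446. None of the 11 ratios computed separated the groups, and the lowest exact permutation p was 0.2 (Mybpc2), with adjusted p of 0.990 or above. What set fl128 apart was not tested.

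Genes known to set which heavy chain a fiber makes were measured in 29 of 30 cases, of which 4 were higher and 3 lower at an unadjusted p under 0.05 in edgeR, beside 5.34% and 6.62% of all genes, with a median log2 fold change of 0.06. Without c129, 2 were higher, and 2 were lower without c129 or c130. Nfatc4, of the family that carries the calcineurin signal of slow nerve activity, was at 45.9 ± 5.75 CPM in WT and at 92.9 ± 15.2 CPM in the cD2KO mice (mean ± SD of 3 mice per group, log2 fold change 1.015, adjusted p = 0.0902 by edgeR). Nfatc2 of the same family moved the other way, from 50.4 ± 16.8 to 27.9 ± 5.87 CPM (log2 fold change -0.85, edgeR adjusted p = 0.260). Six5 and Hdac5, a class IIa deacetylase that binds Mef2, were higher by 0.71 and 0.60 on the log2 scale (edgeR adjusted p = 0.377 and 0.323).

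Maf, a factor known to drive Myh4, was lower, at 804 ± 104 CPM in WT and at 529 ± 40.1 CPM in the cD2KO mice (mean ± SD of 3 mice per group, log2 fold change -0.61, adjusted p = 0.204 by edgeR). Every cD2KO mouse lay below every WT mouse, while the mean level of Myh4 was not lower. Maf was named for its p, so that separation is no finding apart from the call. Over the regulator list, all cD2KO mice lay above all WT mice in 6 of the 29 tested and below them in 2. The share of all genes tested without overlap was 18.1%, in either direction. Mafa, of the same family, was at 3.59 ± 0.825 and 3.71 ± 1.25 CPM. Maf is also expressed in macrophages, whose 12 markers moved in the same direction, with a summed level of 4083 to 7442 CPM in WT and 207 to 2659 CPM in cD2KO mice. Of those markers 3 were lower at an unadjusted p under 0.05 and 0 higher, beside 6.62% and 5.34% of all genes. The lower markers were 11 without the library labelled fl125, 1 without c129, c130 or fl126 and 0 without fl128. The part of macrophage RNA in the Maf values was not tested.

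Of 17 genes of TH transport, conversion and response, 14 were tested, with a median log2 fold change of -0.07. The transporter Slc16a10 was the 1 gene called, at 7.89 ± 3.15 CPM in WT and at 3.07 ± 0.555 CPM in the cD2KO mice (mean ± SD of 3 mice per group, log2 fold change -1.37, adjusted p = 0.377 by edgeR), and 0 were higher. Since 6.62% of all genes were lower, 1 of 14 is near the background. Lower genes of this list were 0 without c124, fl126 or fl128 and 3 without the library labelled fl125, when 1 was higher. The receptor genes Thra (322 ± 19.1 and 421 ± 20.5 CPM, edgeR adjusted p = 0.436) and Thrb (8.42 ± 0.868 and 5.14 ± 1.18 CPM, edgeR adjusted p = 0.634) did not pass the threshold, although in each the groups did not overlap, with Thra above and Thrb below. Among the 14 genes tested, Thra and Thrb included, all cD2KO mice lay above all WT mice in 3 and below them in 2, beside 18.1% of all genes in either direction. Of the members' promoters, as given above, Myh7b alone held the receptor's core site.

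The other myosin heavy chain genes of the table were not sarcomeric, apart from Myh13 of eye muscle (1, 0 and 7 counts in WT and 0, 5 and 0 in cD2KO mice) and Myh15 (1 count in c129). Myh11, the heavy chain of smooth muscle, was at 2117, 1984 and 2432 CPM in the WT mice and 3092, 3860 and 6098 CPM in the library labelled fl125 and in fl126 and fl128. All cD2KO mice lay above all WT mice (log2 fold change 0.996 with an SE of 0.25, adjusted p = 0.123 by edgeR). Per kilobase of longest transcript Myh11 was at 498 CPM over the 6 mice, against 30.2 for Myh4. The non-muscle isoforms Myh9, Myh10 and Myh14 had log2 fold changes of -0.36, 0.23 and 0.27, none past the threshold. In Myh9 all cD2KO mice lay below all WT mice, at 240 to 314 CPM against 333 to 370 CPM. Of all genes tested, 18.1% had groups that did not overlap, in either direction.

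**Figure D5:**
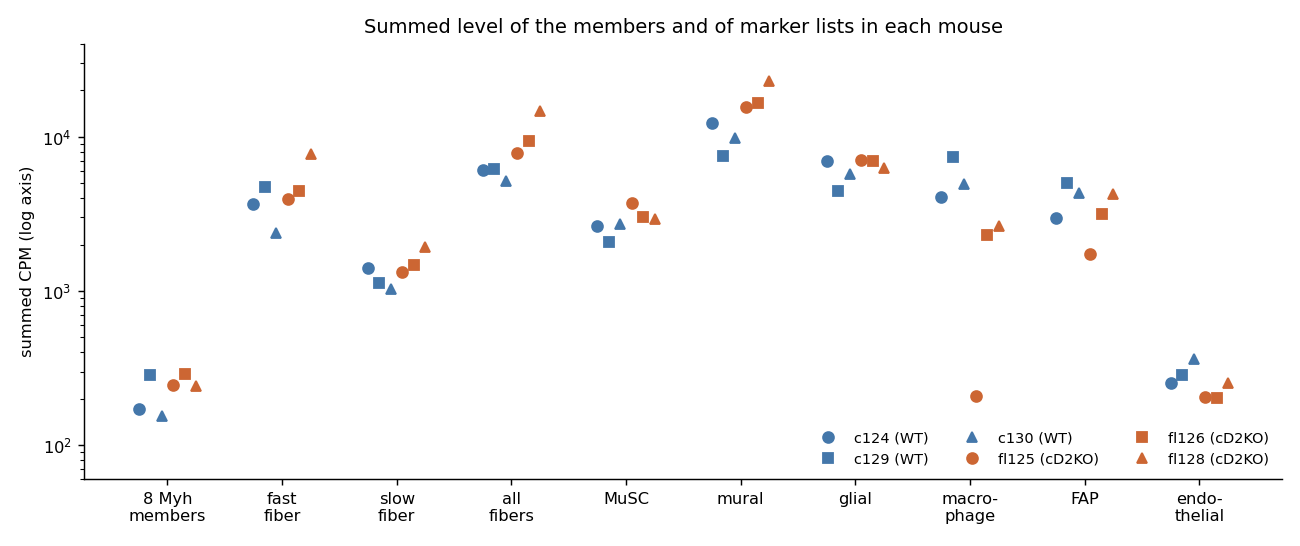
Summed CPM (y axis, log axis) of the 8 members, of 3 lists of fiber genes and of markers of stem, mural, glial, macrophage, fibroadipogenic (FAP) and endothelial cells; each point is a mouse. The members keep within 154 to 290 CPM, the summed mural markers are higher in all cD2KO mice (15594 to 22973 CPM against 7479 to 12346 CPM in WT), and the macrophage markers are lowest, at 207 CPM, in the library labelled fl125.

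Summed markers of mural, endothelial, macrophage and stem cells did not overlap between the groups. Those of glial and fibroadipogenic cells overlapped, as did the sums of the fast and slow fiber lists. Over all genes 5.34% were higher and 6.62% lower at an unadjusted p under 0.05, the background for each of these lists. Of the 12 mural markers, which include Myh11 and Des, 7 were higher and 0 lower by that threshold, with a median of 0.85. Their sum was 7479 to 12346 CPM in WT and 15594 to 22973 CPM in cD2KO mice. Des is also on the stem cell and all-fiber lists, and Cdh15 on the stem cell and developmental lists, so these calls count more than once. The 7 higher mural markers were Acta2, Myh11, Tagln, Cnn1, Mylk, Des and Notch3, and 9 of the 12 had a log2 fold change above 0. Among those not called, Cspg4 lay above 0 too. Rgs5, Pdgfrb, Kcnj8 and Abcc9 had log2 fold changes of 0.0025, -0.06, -0.36 and -0.23, none past the threshold. Of 10 endothelial markers 9 were tested and 6 were lower, and the sums were 254 to 363 CPM in WT and 203 to 252 CPM in cD2KO. Among 14 stem cell markers 4 were higher and 0 lower, with a median of 0.27 and sums of 2083 to 2717 CPM in WT and 2937 to 3720 CPM in cD2KO, and of 7 fibroadipogenic and 6 glial markers tested, 0 were higher and 1 was lower in each. Leaving out each mouse in turn, the mural count stayed at 7 and the endothelial count was 4 to 8, where 4 came without c129 or c130. The stem cell count was 2 without c130 or the library labelled fl125, the fibroadipogenic count 0 without c129 or c130, 2 without c124 and 3 without fl128, and the glial count 0 without c124, c130, fl126 or fl128. Mouse fl128, with the highest fast partners, had the highest mural markers too, whereas the summed heavy chains were highest in fl126 and c129. The part of any of these cells in the myosin values was not tested.

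Over the 6 mice, the summed log2 CPM of the 8 members went most closely with Sfxn3, Knstrn, Cep170b, Gjb5, Pcmt1, B230217C12Rik, Mettl2, Mybpc2, Tm9sf4 and Gm42788, with Pearson's r from 0.949 to 0.975 (n = 6 mice, 11628 genes ranked). Of these 10, only Mybpc2 is on a fiber list. The points share library and depth, and with so many genes ranked over 6 mice such values are a description only. Of the 15 fast partners 14 had an r above 0.5, or 93.3%, beside 14.3% of the 14 slow partners, 47.4% of the 19 genes of all fibers and 12.4% of all genes ranked. Among the fast partners r ran from 0.432 (Myl1) to 0.955 (Mybpc2), and among the genes of all fibers from -0.193 (Klhl41) to 0.851 (Ryr1). In the latter list Acta1 had an r of 0.774, Ckm 0.735, Ttn 0.713, Tpm2 0.354 and Des 0.205. Of the 12 macrophage markers 0 had an r above 0.5, and of the 12 mural markers 1.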

How the data were processed

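RNA was purified with an RNeasy Mini Kit. The authors mapped reads to mm10 with STAR and deposited a table of whole-number counts per gene, not normalized. The submitters' processing notes also list STAR 2.6.0a, HTSeq 0.9.1 and bcl2fastq; the annotation, strand and duplicate handling are not given in the sources used here. Symbols and positions came from GENCODE M21 (31011 of 31053 identifiers found), promoters from RefSeq (GRCm38.p6; all 8 members found).

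The expression minimum was a mean above 10 in DESeq2-normalized counts, which 11633 genes passed. Counts were tested with edgeR 4.0.16 (TMM, robust quasi-likelihood, 6 mice, no covariate; R 4.3.3), with Benjamini-Hochberg adjustment over all genes tested. Log2 CPM of summed counts used a prior count of 2. For shares, ratios and sums, two-sided exact permutation tests over mice were used. The fit was first tested on simulated data. Groups came from the genotype labels; no labels give batches, and no pair of libraries agreed within sampling noise (lowest chi-square per degree of freedom 8.69). Labels do not tell whether mice were littermates.

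Genes named were the members and other Myh genes, those overlapping or next to a member, Dio2, Pax7, Acta1, Ckm and Ttn, up to 5 genes per direction of smallest unadjusted p in each list, and the 10 genes of highest r. Any other gene was picked with its values in view. Some genes that this rule names are not reported here, although the counts over lists include them. The members and lists were chosen with earlier results of these data known. Alternatives were DESeq2 1.42.0, limma 3.58.1 voom, DESeq2 size factors, total counts, other minimums, non-robust estimation, each mouse left out, a prior count of 0.5, length-scaled or pooled shares and adjusted p thresholds.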

Additional observations from a re-analysis of the deposited data

How the results depend on the processing

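The 5 members tested had a positive log2 fold change in each alternative that tested them (a minimum mean of 50 tested only Myh2 and Myh4), and Myh1, Myh3 and Myh7 kept their side of the threshold. Leaving out each mouse, Myh2 ranged from 0.54 to 0.96 and Myh4 from 0.11 to 0.71. Myh2 lost its call with DESeq2 (0.72), limma voom (0.68), total counts (0.62) and a minimum mean of 50 (0.66). The summed level of all 8 members, of the 3 adult fast and of the other 5 turned to -0.17, -0.18 and -0.023 relative to the 15 fast partners, and to -0.29, -0.296 and -0.14 relative to the fast, slow and pan fiber lists, both scalings chosen after the data were seen; in every case the exact permutation p was 0.6 or above. For all 8 and the adult fast members this rested on fl128. Leaving out each mouse, the values relative to the fast partners ranged from -0.35 (without fl126) to 0.18 (without fl128), from -0.38 to 0.18 and, for the other 5, from -0.34 (without c124) to 0.38 (without c130). Relative to the 3 lists they ranged from -0.44 to 0.020, from -0.47 to 0.024 and from -0.46 to 0.14, with the same mice left out. Leaving out each mouse, the share difference ranged from -4.98 to 0.771 percentage points for Myh4, -1.30 to 2.34 for Myh1 and -0.403 to 0.860 for Myh7. For Myh1 it was 0.012 within the 3 adult fast members and 0.083 with pooled counts.

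The genes higher and lower in cD2KO were 939 and 1040 with no minimum, 431 and 505 with a minimum mean of 50, 33 and 57 at an adjusted p under 0.1 and 1 and 0 at an adjusted p under 0.05. Leaving out each mouse they ranged from 402 to 933 and from 399 to 874, the fiber genes higher from 9 to 26 and the regulators higher from 2 (without c129) to 5. Higher fiber genes were 12 with total counts, 35 with no minimum (2 lower) and 12 with a minimum mean of 50. The cause of these changes was not tested.

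No paired analysis was possible because the labels give no replicate numbers that the groups share. With 3 mice per group permutation tests cannot go below 0.1, and at 2184073 to 3897787 counts per mouse the levels of Myh6, Myh7b and Myh8 could not be compared.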

Other observations

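Near the cluster on chromosome 11, Sco1 and Adprm were at 4.42 to 12.9 CPM and 6.84 to 23.1 CPM. They differed by 0.28 and -0.08 on the log2 scale (adjusted p = 0.879 and 0.966 by edgeR). Myh13, whose counts are given above, lies after Myh8 on the plus strand at 67321658-67371586. 2310065F04Rik had 11, 4 and 7 counts in the WT mice and 16, 9 and 8 in the cD2KO mice.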
